A study of Mus musculus with 15 samples.

Results

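The ABCC conjugate export pumps studied here were the 6 genes Abcc1, Abcc2, Abcc3, Abcc4, Abcc5 and Abcc6, of 18820 genes measured in primary mouse hepatocytes. Each was read through the probe set annotated to that gene alone, and each had 1 such probe set, so no dimmer one was set aside. The family was chosen by its name and by the measured group differences of Abcc2, which had been seen to move in opposite directions with FXRα isoforms that carry the MYTG insert and with isoforms that lack it. The values of Abcc2 in those comparisons are therefore given as a description, with no test.

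Pumps of the ABCC family (the multidrug resistance-associated proteins, MRPs) use ATP to move organic anions out of cells, above all drugs, hormones and bilirubin after their coupling to glucuronic acid, sulfate or glutathione. In the hepatocyte MRP2 (Abcc2) sits in the canalicular membrane and exports conjugates into bile, while MRP3 (Abcc3) and MRP4 (Abcc4) sit in the sinusoidal membrane and return them to blood, a route known to be used when bile flow is blocked. FXR (gene Nr1h4) is the bile acid receptor of hepatocytes, and human ABCC2 is a known target of it.

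Hepatocytes of male C57BL/6J mice were transduced overnight with adenoviruses, and RNA was taken 36 h after transduction, from cells kept without dexamethasone and insulin once the overnight step was over. All 5 groups carried GFP, driven by a CMV promoter of its own: alone in the control group, and with a human receptor variant in the FXRα1, FXRα2, FXRα3 and FXRα4 groups, each of 3 arrays. FXRα1 and FXRα3 carry the insert, a short stretch next to the DNA-binding domain, and FXRα2 and FXRα4 lack it, while the N-terminus is longer in FXRα3 and FXRα4. The labels give neither the age of the mice nor an added FXR ligand. They also do not say whether replicates were separate cultures or mice. The p-values thus rest on the spread among these arrays alone, and that spread may be technical. The number of arrays limits the precision.

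Values are the deposited ones on a log2 scale, on which a difference of 1 is a doubling. Over all 35556 probe sets the medians of the 15 arrays lay between 4.92 and 5.01. Over the 18820 genes tested the array medians were less aligned. Centring the arrays on their medians there moved the differences from GFP by −0.221 with FXRα2 and −0.212 with FXRα4. As deposited, the median difference over these genes was −0.048 with FXRα2 and −0.027 with FXRα4, so this centring moved it further down. Centring on the 75th percentile moved it by −0.011 and 0.011, and quantile normalization by 0.017 and 0.005. Which scaling is nearer to the true levels was not tested. Tests are those of limma, with Benjamini-Hochberg adjustment across the 18820 genes, and "rose", "fell" and "changed" mean an adjusted p under 0.05. The 10 hepatocyte markers measured, among them the fibrinogen gene Fgb and the apolipoprotein gene Apoa1, were all brighter than the median gene. Of the markers measured for other cell types, 9 of 10 for Kupffer cells, 9 of 10 for sinusoidal endothelium, 9 of 10 for stellate cells and fibroblasts and 8 of 8 for leukocytes were dimmer than it. Of the 7 cholangiocyte markers measured, only 1 was dimmer than the median gene. The mean of these markers was 7.73 to 7.82 over the GFP arrays, 8.10 to 8.13 with FXRα1, 8.35 to 8.45 with FXRα2, 8.22 to 8.29 with FXRα3 and 8.54 to 8.63 with FXRα4. These 7 did not move as one: with FXRα2 Epcam rose by 4.95 and Krt19 fell by 1.82, and with FXRα4 they rose by 4.68 and fell by 0.93, while with FXRα1 and FXRα3 Krt19 rose by 1.32 and 1.76 and Epcam by 0.68 and 0.74. The mean of the hepatocyte markers was 10.16 to 10.24 with GFP, 10.23 to 10.25 with FXRα1, 10.48 to 10.55 with FXRα2, 10.31 to 10.38 with FXRα3 and 10.44 to 10.48 with FXRα4. The part of these shifts in the results below was not tested, and in such samples fewer cells of a type and less RNA per cell cannot be told apart. Since the arrays read mouse Nr1h4, the level of the human receptor could not be checked.

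Against GFP, both isoforms that lack the insert went with lower Abcc4 and Abcc5 and with lower values of Abcc2, and FXRα2 also with lower Abcc1 and higher Abcc6. Of the 5 members other than Abcc2, 1 rose and 0 fell with FXRα1, where 8.42% of all genes rose and 4% fell (12.4% together). With FXRα2 1 of the 5 rose and 3 fell, where 17.5% of all genes rose and 16.7% fell (34.3% together). With FXRα3 2 of the 5 rose and 0 fell, where 7.45% rose and 6.62% fell (14.1% together), and with FXRα4 1 rose and 2 fell, where 18% rose and 15.7% fell (33.8% together). The median log2 difference over these 5 was 0.078, −0.63, 0.17 and −0.24 for FXRα1, FXRα2, FXRα3 and FXRα4, beside 0.0035, −0.048, −0.0026 and −0.027 over all genes. The 4 comparisons share the GFP arrays and are not independent of one another.

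**Figure D1:**
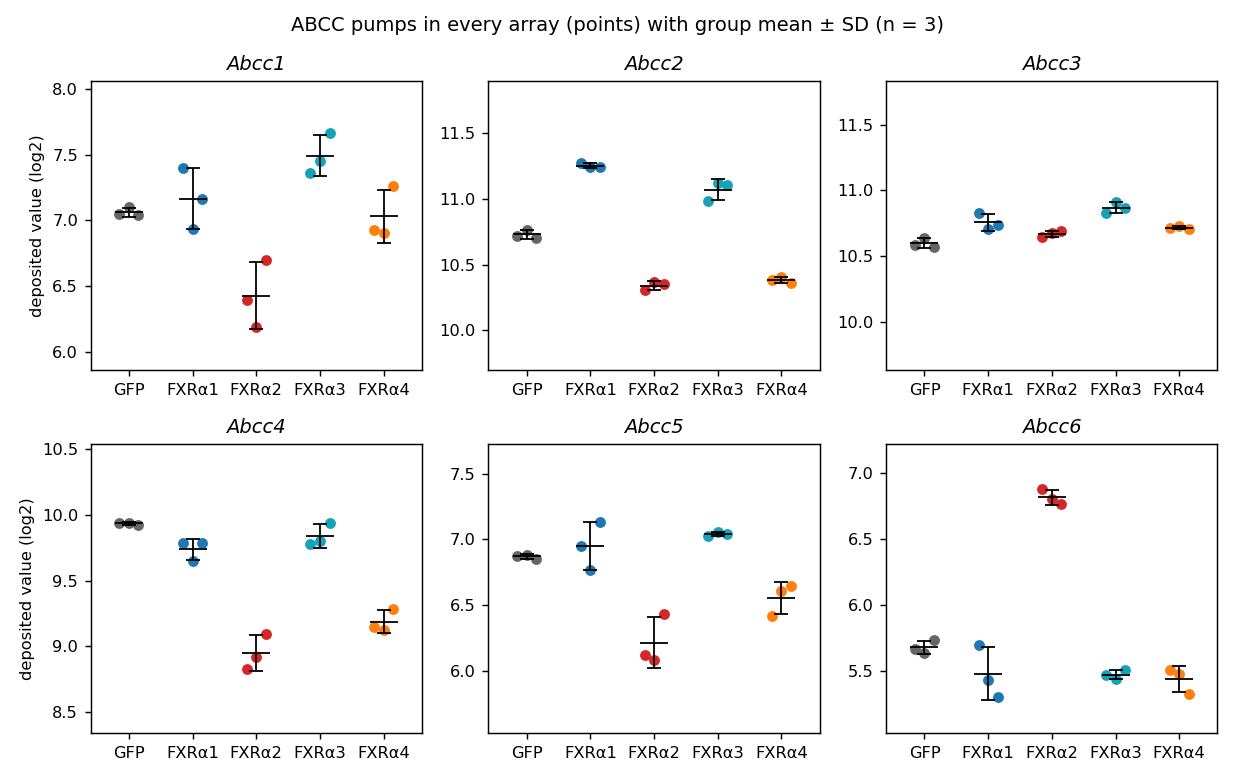
Deposited log2 value of each ABCC pump gene (vertical axes, all spanning the same range) in each array (points) of the 5 groups, with the group mean and SD (bars, n = 3). Abcc2 lies above GFP with FXRα1 and FXRα3 and below it with FXRα2 and FXRα4, and the 3 FXRα2 arrays of Abcc6, at 6.77 to 6.88, lie above the other 12 arrays.

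Abcc2, the canalicular pump for bilirubin glucuronides and glutathione conjugates, had values of 10.718, 10.765 and 10.705 in the GFP arrays. With FXRα1 it had 11.274, 11.239 and 11.246, and with FXRα3 10.982, 11.124 and 11.107. With FXRα2 it had 10.303, 10.364 and 10.352, and with FXRα4 10.381, 10.403 and 10.362. All 6 arrays with the insert were above all 3 GFP arrays, and all 6 arrays without it were below them. The group means therefore ran, from low to high, FXRα2 at 10.34 ± 0.03 (SD, n = 3), FXRα4 at 10.38 ± 0.02, GFP at 10.73 ± 0.03, FXRα3 at 11.07 ± 0.08 and FXRα1 at 11.25 ± 0.02. Neighbours in this order did not overlap, except FXRα2 and FXRα4. Against GFP the log2 difference was 0.52 ± 0.04 (SE) with FXRα1, 0.34 ± 0.04 with FXRα3, −0.39 ± 0.04 with FXRα2 and −0.35 ± 0.04 with FXRα4. Between isoforms that differ in the insert it was −0.91 ± 0.04 for FXRα2 against FXRα1, a 1.88-fold lower level, and −0.69 ± 0.04 for FXRα4 against FXRα3, 1.61-fold lower. These differences belong to the pattern for which the gene was chosen, so the signs they kept in all alternatives run do not count as support for it. Median centring moved the differences with FXRα2 and FXRα4 away from 0, to −0.61 and −0.56. It moved the difference with FXRα1 towards 0, to 0.42, and centring on the 75th percentile moved it to 0.47.

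The comparison of the N-termini was not part of that choice, but it uses the same Abcc2 values, so it too is given with no test. Abcc2 was lower with FXRα3 than with FXRα1, by −0.18 ± 0.04, and the 3 arrays of each group did not overlap. This difference was −0.14 without FXRα3 replicate 1, and −0.12 both with median centring of the arrays and with centring on the 75th percentile. Between FXRα4 and FXRα2 the difference was 0.04 (95% interval −0.04 to 0.13), with overlapping arrays. The insert differences of −0.91 and −0.69 are 0.22 apart (0.17 to 0.26 over the alternatives), which is given with no test, as both belong to the values that chose the gene.

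RefSeq promoter sequence (build GRCm38.p6) was at hand for 3 of the members, Abcc2, Abcc4 (with 2 start sites) and Abcc5. The 250 bases before each start site are shown, 5′ to 3′ on the gene's strand, to compare the letters in front of these starts. Both Abcc4 windows lie inside the annotated span of that gene, chr14:118482692-118707856. Capitals mark matches, on either strand, to the nuclear receptor half-site AGGTCA or to the antioxidant response element core TGACNNNGC.
Abcc2, chr19:43782058-43782307, plus strand: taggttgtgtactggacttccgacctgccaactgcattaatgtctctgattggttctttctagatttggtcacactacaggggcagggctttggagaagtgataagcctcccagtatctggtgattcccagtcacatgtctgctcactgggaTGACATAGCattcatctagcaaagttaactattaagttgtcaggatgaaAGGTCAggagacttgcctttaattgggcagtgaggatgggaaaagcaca
Abcc4 start 1, chr14:118706220-118706469, minus strand: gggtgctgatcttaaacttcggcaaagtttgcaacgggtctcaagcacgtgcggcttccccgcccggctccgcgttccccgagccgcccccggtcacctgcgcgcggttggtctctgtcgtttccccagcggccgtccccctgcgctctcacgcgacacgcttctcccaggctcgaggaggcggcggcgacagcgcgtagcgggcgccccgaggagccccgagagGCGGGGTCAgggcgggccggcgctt
Abcc4 start 2, chr14:118676932-118677181, minus strand: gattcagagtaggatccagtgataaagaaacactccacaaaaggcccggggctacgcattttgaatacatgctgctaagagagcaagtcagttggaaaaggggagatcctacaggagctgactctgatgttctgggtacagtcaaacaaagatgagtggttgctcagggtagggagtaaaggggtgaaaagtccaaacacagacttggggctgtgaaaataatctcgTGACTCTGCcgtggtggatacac
Abcc5, chr16:20426395-20426644, minus strand: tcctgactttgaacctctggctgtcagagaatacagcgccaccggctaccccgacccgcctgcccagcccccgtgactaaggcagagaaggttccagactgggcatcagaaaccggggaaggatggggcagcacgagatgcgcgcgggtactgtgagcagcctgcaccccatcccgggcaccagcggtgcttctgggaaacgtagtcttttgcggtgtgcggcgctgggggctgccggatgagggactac
The Abcc2 window held 1 half-site AGGTCA, beginning 49 bases before the start, which 14.0% of the 32851 windows of this length hold, and 1 antioxidant core beginning 98 bases before the start, which 10.2% hold. Both Abcc4 windows held 1 antioxidant core, on the other strand and 25 bases before start 1, and on the gene's strand and 23 bases before start 2. The Abcc5 window held neither motif. The half-site form AGTTCA (11.8% of windows) and the inverted repeat of AGGTCA spaced by 1 base, the classical FXR response element (2 of all windows),, were in none of these windows. The half-site also forms each arm of the inverted repeat, so those motifs overlap. The windows differed in base composition: Abcc2 had 1 CpG and 45.6% G and C, Abcc4 35 CpG and 72.0% at start 1 but 4 CpG and 47.6% at start 2, and Abcc5 17 CpG and 64.0%, beside medians of 6 CpG and 52.4% over all windows. A match is a description of letters, and a missing one says nothing about binding elsewhere.

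Abcc3, the sinusoidal pump for glucuronides, varied least of the 6, with group means that spanned 0.27. It had 10.583, 10.639 and 10.566 with GFP, 10.642, 10.677 and 10.689 with FXRα2, and 10.711, 10.729 and 10.708 with FXRα4. With FXRα1 it had 10.829, 10.705 and 10.736, and with FXRα3 10.828, 10.909 and 10.864. Every isoform array was above all 3 GFP arrays, in the order FXRα2, FXRα4, FXRα1, FXRα3, with overlap between FXRα4 and FXRα1 and between FXRα1 and FXRα3. Abcc3 rose with FXRα3, by 0.27 ± 0.04 (limma adjusted p = 5.11e-05), and this call held in all 16 alternatives. It also rose with FXRα1 (0.16 ± 0.04, limma adjusted p = 0.00952) and FXRα4 (0.12 ± 0.04, limma adjusted p = 0.0259). It did not pass with FXRα2 (0.07, 95% interval −0.01 to 0.16, limma adjusted p = 0.188). Median centring turned the sign with FXRα2 (−0.15, limma adjusted p = 0.0188) and FXRα4 (−0.09), and brought the difference with FXRα1 to 0.06. The FXRα1 call was lost in 6 of 16 alternatives in all (limma adjusted p from 0.00528 to 0.475), among them those without FXRα1 replicate 1 (0.12) or GFP replicate 3 (0.15). The FXRα4 call was also lost in 6 of 16 alternatives (limma adjusted p from 0.0187 to 0.127), with median centring, without the mean-variance trend, and without FXRα4 replicate 2 (0.11), FXRα4 replicate 3 (0.12), GFP replicate 1 (0.11) or GFP replicate 3 (0.11).

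Abcc4, which exports bile acids together with glutathione as well as cyclic nucleotides, had the largest fall against GFP of any member. Its GFP arrays were close together, at 9.94, 9.94 and 9.93. With FXRα2 it had 8.83, 8.92 and 9.10, and with FXRα4 9.15, 9.13 and 9.29. Both of these groups lay below every other array, without overlap between them. Abcc4 fell by 0.99 ± 0.07 with FXRα2 (limma adjusted p = 4.71e-11), a 1.98-fold lower level, and by 0.75 ± 0.07 with FXRα4 (limma adjusted p = 4.84e-09). Both calls held in all 16 alternatives.

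With the insert, Abcc4 was nearer to GFP. Its FXRα1 arrays had 9.79, 9.65 and 9.78, all below GFP, and its FXRα3 arrays 9.78, 9.80 and 9.94, of which the last was just above all GFP arrays. The difference was −0.20 ± 0.07 with FXRα1 (limma adjusted p = 0.0526) and −0.09 (95% interval −0.23 to 0.04, limma adjusted p = 0.463) with FXRα3. The FXRα1 difference passed in 8 of 16 alternatives, among them all 3 other scalings (−0.22 to −0.30), with adjusted p from 0.000138 to 0.171 over the alternatives.

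Abcc1, which exports glutathione conjugates such as leukotriene C4 and is low in the resting liver, had 7.05, 7.10 and 7.04 with GFP. With FXRα2 it had 6.39, 6.19 and 6.70, below all other arrays. With FXRα3 it had 7.36, 7.45 and 7.66, above all GFP and FXRα4 arrays, and with FXRα4 6.92, 6.91 and 7.26. The FXRα1 arrays, at 7.40, 6.93 and 7.16, spread on both sides of GFP. Abcc1 fell by 0.63 ± 0.13 with FXRα2 (limma adjusted p = 0.000368), in all 16 alternatives too. It rose by 0.43 ± 0.13 with FXRα3 (limma adjusted p = 0.0243), but this call was lost without the mean-variance trend, without FXRα3 replicate 2 (0.45), FXRα3 replicate 3 (0.34), or GFP replicate 1 (0.42), 2 (0.45) or 3 (0.42). It did not pass with FXRα1 (0.10, 95% interval −0.16 to 0.37, limma adjusted p = 0.735) or FXRα4 (−0.03, −0.30 to 0.23, limma adjusted p = 0.891), and with median centring it passed with FXRα4 (−0.24).

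Abcc5, a broadly expressed exporter of cyclic nucleotides, had 6.88, 6.88 and 6.85 with GFP. With FXRα2 it had 6.12, 6.09 and 6.43, and with FXRα4 6.42, 6.60 and 6.64, and the arrays of both groups were below all GFP arrays and overlapped each other. With FXRα1 it had 6.95, 6.77 and 7.13, and with FXRα3 7.03, 7.05 and 7.04. Abcc5 fell by 0.66 ± 0.10 with FXRα2 (limma adjusted p = 2.24e-05), in all 16 alternatives too. It fell by 0.32 ± 0.10 with FXRα4 (limma adjusted p = 0.0198), a call lost without FXRα4 replicate 1 (−0.25), GFP replicate 1 (−0.31) or GFP replicate 2 (−0.31), and moved to −0.53 with median centring. Abcc5 did not pass with FXRα1 (0.08, 95% interval −0.14 to 0.29, limma adjusted p = 0.751) or FXRα3 (0.17, −0.04 to 0.38, limma adjusted p = 0.373).

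Abcc6 is a pump of the hepatocyte's sinusoidal membrane through which ATP leaves the cell to yield pyrophosphate, an inhibitor of calcification, and its loss causes pseudoxanthoma elasticum. It was the dimmest of the 6 members, with a mean of 5.77 at percentile 49.5 of the probe sets with 1 gene symbol. How well falls from such a level can be read was not tested. Abcc6 had 5.66, 5.63 and 5.73 with GFP and 6.88, 6.80 and 6.77 with FXRα2. With FXRα1 it had 5.70, 5.43 and 5.30, with FXRα3 5.46, 5.43 and 5.50, and with FXRα4 5.51, 5.47 and 5.32. The 3 FXRα2 arrays stood above all others, and the remaining 4 groups followed one another without a gap in their arrays. Abcc6 rose by 1.14 ± 0.10 with FXRα2 (limma adjusted p = 8.86e-09), a 2.2-fold higher level, and the rise was 0.92 to 1.17 and passed in all 16 alternatives. With FXRα1, FXRα3 and FXRα4 the differences were −0.20, −0.21 and −0.24 (limma adjusted p = 0.27, 0.237 and 0.0802). The last passed with median centring (−0.45), with quantile normalization (−0.46) and without the trend (−0.24).

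**Figure D2:**
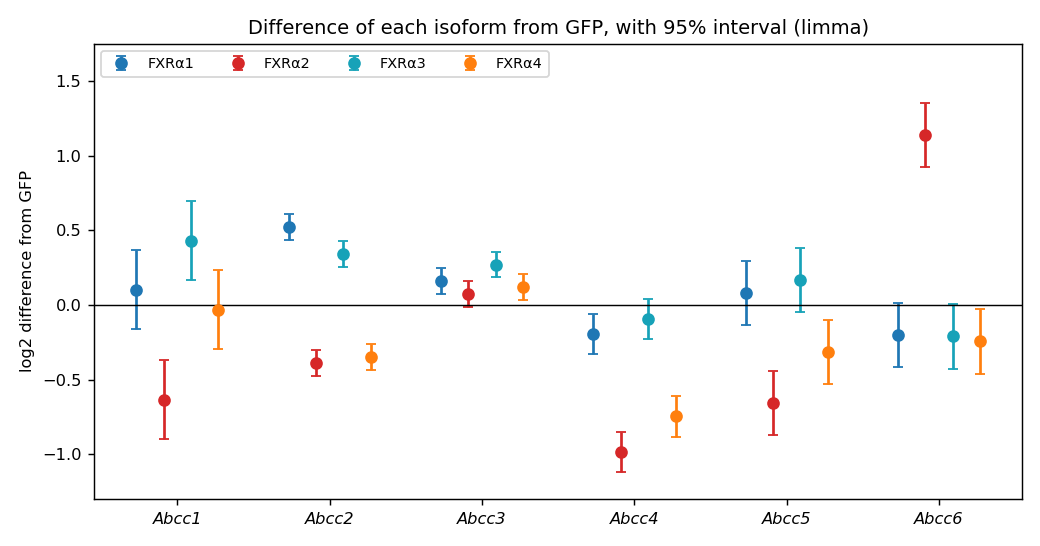
Log2 difference from GFP (vertical axis) of each ABCC pump gene in each isoform group, with points for the estimate and bars for its 95% interval from limma (n = 3 per group). Abcc2 splits by isoform, at 0.52 and 0.34 with the insert and −0.39 and −0.35 without it, and the FXRα2 point of Abcc6 stands at 1.14 while the others are below 0. Abcc2 was chosen for this split, so its points and bars are a description and not a test.

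The comparisons of FXRα2 with FXRα1 and of FXRα4 with FXRα3 asked what goes with the loss of the insert at a given N-terminus. Of the 5 members other than Abcc2, 1 was higher and 3 were lower with FXRα2 than with FXRα1, where 14.1% of all genes were higher and 17.1% lower (31.3% together). Between FXRα4 and FXRα3 0 were higher and 4 lower, where 15.8% of all genes were higher and 13.8% lower (29.5% together). Abcc4 was lower without the insert by 0.79 ± 0.07 at the shorter N-terminus (log2 difference −0.79, limma adjusted p = 2.9e-09) and by 0.65 ± 0.07 at the longer one (−0.65, limma adjusted p = 6.09e-08). Abcc5 differed by −0.73 ± 0.10 (limma adjusted p = 6.74e-06) and −0.49 ± 0.10 (limma adjusted p = 0.000772), and Abcc1 by −0.74 ± 0.13 (limma adjusted p = 8.64e-05) and −0.46 ± 0.13 (limma adjusted p = 0.00754). The last call was lost without FXRα3 replicate 3 (−0.38). Abcc3 was lower with FXRα4 than with FXRα3 by −0.15 ± 0.04 (limma adjusted p = 0.00652), and by −0.32 with median centring. Between FXRα2 and FXRα1 its difference of −0.09 missed the threshold (95% interval −0.17 to −0.002, limma adjusted p = 0.117), and passed with median centring (−0.20).

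Abcc6 did the opposite at one N-terminus and moved little at the other. It was higher with FXRα2 than with FXRα1 by 1.34 ± 0.10 (limma adjusted p = 1.2e-09), 2.53-fold. Between FXRα4 and FXRα3 it differed by −0.03 (95% interval −0.25 to 0.18, limma adjusted p = 0.869). The difference between these 2 effects was itself tested, and the interaction was −1.37 ± 0.15 (limma adjusted p = 1.75e-06), within −1.48 to −1.11 and past the threshold in all 22 alternatives. Of the 5 members other than Abcc2, 1 passed the interaction, Abcc6, below 0, where 7.24% of all genes passed above 0 and 5.63% below it (12.9% together). For Abcc1, Abcc3, Abcc4 and Abcc5 the interaction did not pass, and its 95% intervals ran from −0.10 to 0.65, −0.18 to 0.06, −0.05 to 0.33 and −0.06 to 0.55.

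**Figure D3:**
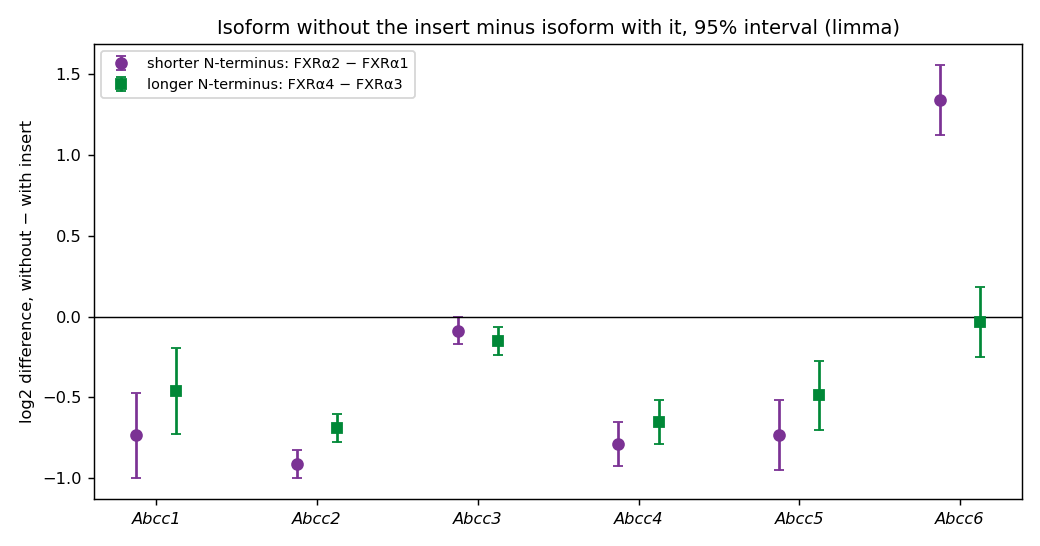
Log2 difference between the isoform without the insert and the isoform with it (vertical axis) for each ABCC pump gene, at the shorter N-terminus (circles) and the longer one (squares), with 95% intervals from limma (n = 3 per group). Both points lie below 0 for Abcc1, Abcc2, Abcc3, Abcc4 and Abcc5, while Abcc6 stands at 1.34 at the shorter N-terminus and −0.03 at the longer one. Abcc2 was chosen for its differences with the insert, so its points and bars are a description and not a test.

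The N-terminus itself was compared among isoforms alike in the insert. With the insert, FXRα3 against FXRα1, none of the 5 members other than Abcc2 changed, where 2.21% of all genes were higher and 4.65% lower (6.86% together). Abcc1 was 0.33 higher with FXRα3 (95% interval 0.06 to 0.59, limma adjusted p = 0.144), a difference that passed with the 3 other scalings (0.39 with each) and with the replicate number as a block (limma adjusted p = 0.0408). Abcc3 was 0.11 higher (limma adjusted p = 0.121), and passed with median centring (0.18), with centring on the 75th percentile (0.17) and without FXRα1 replicate 1 (0.15). Without the insert, FXRα4 against FXRα2, 3 of the 5 were higher and 1 lower, where 11.7% of all genes were higher and 12.0% lower (23.7% together). Abcc6 was lower with FXRα4 by −1.38 ± 0.10 (limma adjusted p = 1.94e-09). Abcc1 was higher with FXRα4 by 0.60 ± 0.13 (limma adjusted p = 0.00111), Abcc5 by 0.34 ± 0.10 (limma adjusted p = 0.0185) and Abcc4 by 0.24 ± 0.07 (limma adjusted p = 0.00871). The Abcc4 call was lost without FXRα2 replicate 1 (0.18) or FXRα4 replicate 3 (0.19). The Abcc5 call was lost in 5 of 16 alternatives, among them those without FXRα2 replicate 1 (0.29) or 2 (0.28), or FXRα4 replicate 2 (0.31) or 3 (0.30), with adjusted p from 0.00129 to 0.102 over the 16. The Abcc1 and Abcc6 calls held in all 16.

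Of the remaining ABCC genes measured, Abcc12 rose with FXRα4 by 0.83 ± 0.08 (limma adjusted p = 9.69e-09) and with FXRα2 by 0.29 ± 0.08 (limma adjusted p = 0.00402), and fell by 0.27 ± 0.08 with FXRα3 (limma adjusted p = 0.0193). The FXRα2 call of Abcc12 was lost with quantile normalization (0.18) and median centring (0.07). Abcc10 rose with FXRα4 (0.41 ± 0.08, limma adjusted p = 0.000311). The sulfonylurea receptor genes Abcc8 and Abcc9 and the chloride channel gene Cftr passed with no isoform (log2 differences from −0.09 to 0.07).

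Genes that make conjugates were set beside the pumps, from lists chosen with earlier results of these data known. The share of all genes that changed against GFP was 12.4%, 34.3%, 14.1% and 33.8%, in the order FXRα1 to FXRα4. Whether the counts in this list and those below depart from these shares was not tested, so they describe the lists only. For sulfation, 0 of 14 genes measured changed with FXRα1, 4 rose with FXRα2 and 4 with FXRα4, and 1 fell with FXRα3. Sult1d1, a sulfotransferase, rose by 1.18 ± 0.09 with FXRα2 (limma adjusted p = 6.71e-10) and 1.53 ± 0.09 with FXRα4 (limma adjusted p = 1.27e-11). The sulfate donor synthase gene Papss2 rose by 0.50 and 0.51 with these isoforms, Sult1b1 by 0.60 and 1.05, and Sult1e1 by 0.55 with FXRα2. With median centring 4 sulfation genes were also lower with each of these isoforms, and the list medians of 0.19 and 0.20 came to −0.028 and −0.012.

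In glutathione conjugation, 6 of 20 genes rose and 1 fell with FXRα1, 6 rose and 5 fell with FXRα2, 3 rose and 3 fell with FXRα3, and 3 rose and 10 fell with FXRα4. Gsto1, a glutathione transferase, rose with all 4 isoforms (0.50, 0.95, 0.55 and 0.66 for FXRα1 to FXRα4). Gstk1, the mitochondrial and peroxisomal form, rose by 1.25 with FXRα2 and Gsta3 fell by 0.71 with FXRα2 and 0.57 with FXRα4. Gclm, a subunit of the enzyme that limits glutathione synthesis, rose by 0.26 with FXRα1, where median centring lost the call (0.16), and fell by 0.68 with FXRα4. With median centring the counts with FXRα4 were 1 higher and 13 lower.

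In glucuronidation, of 13 genes measured 2 rose with FXRα1, 3 rose and 2 fell with FXRα2, 1 rose and 1 fell with FXRα3, and 2 rose and 5 fell with FXRα4. The transferase gene Ugt2b35 fell by 0.71 and 0.70 with FXRα2 and FXRα4, and Ugt2b34 by 0.48 and 0.21. Slc35d1, which carries the sugar donor into the endoplasmic reticulum, rose by 0.46 with FXRα1 and 0.39 with FXRα2. The donor's synthase gene Ugdh rose with all 4 isoforms (0.29, 0.12, 0.23 and 0.13), but with median centring the differences with FXRα2 and FXRα4 were −0.11 and −0.079. The UGT1A genes, which share exons, were not analysed here.

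Among genes of bilirubin formation and uptake, 2 of 6 rose with each isoform and 0 fell. Of all genes, 34.3% changed with FXRα2 and 33.8% with FXRα4, so these counts alone do not set the list apart there. Hmox1, the inducible heme oxygenase, rose by 0.67, 0.99 and 0.58 with FXRα1, FXRα2 and FXRα3, and had 0.080 with FXRα4 (limma adjusted p = 0.64). The biliverdin reductase genes Blvra and Blvrb rose by 0.44 and 0.18 with FXRα4, where median centring turned Blvrb to −0.028. In this list Blvrb rose with FXRα1 (0.24, a call lost at 0.14 with median centring) and FXRα3 (0.30) too, and Slco1b2, an uptake carrier for bilirubin, passed with no isoform.

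For the pyrophosphate pathway, to which Abcc6 supplies ATP, 5 genes were measured. Of them 1 rose with FXRα1, 3 rose and 1 fell with FXRα2, 1 fell with FXRα3, and 2 rose and 2 fell with FXRα4. Nt5e, the nucleotidase that makes adenosine, rose by 0.53 with FXRα1 and fell by 0.66 with FXRα2 and 0.74 with FXRα4. Alpl, the phosphatase that breaks pyrophosphate down, rose by 0.62 with FXRα2 and fell by 0.60 with FXRα3 and 0.41 with FXRα4. The pyrophosphate exporter gene Ank rose by 0.35 and 0.26 with FXRα2 and FXRα4, and the phosphate carrier gene Slc20a1 by 0.26 and 0.31, but none of these 4 calls held with median centring (0.041 to 0.125).

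**Figure D4:**
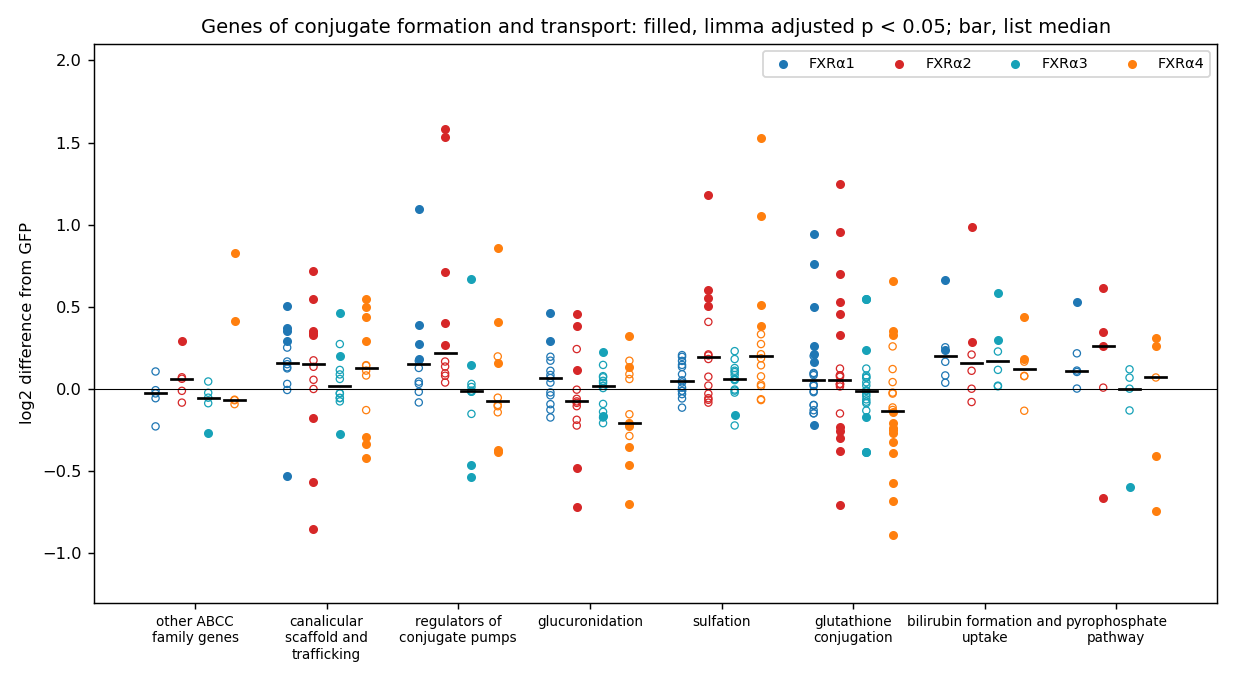
Log2 difference from GFP (vertical axis) of each measured gene in 8 lists around conjugate formation and transport (horizontal axis), by isoform; filled points passed limma at an adjusted p under 0.05, open points did not, and bars are list medians. Most lists hold genes on both sides of 0, and Sult1d1 stands highest in sulfation, at 1.18 with FXRα2 and 1.53 with FXRα4.

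Of the factors known to control these pumps, Nr1i2, the gene of the xenobiotic receptor PXR, rose by 1.58 ± 0.11 with FXRα2 (limma adjusted p = 1.35e-10) and 0.39 with FXRα1, and fell by 0.54 with FXRα3 and 0.37 with FXRα4. Hnf4a rose with all 4 isoforms (1.09, 1.54, 0.67 and 0.86). Ppara rose with FXRα2 (0.71), and Nr1h4 itself rose with FXRα4 (0.41). Nfe2l2, the gene of NRF2, rose by 0.18, 0.14 and 0.16 with FXRα1, FXRα3 and FXRα4, and none of these calls held with median centring (0.077, 0.106 and −0.051). In the whole list of 10 regulators measured, 4 rose with FXRα1 and 5 with FXRα2 and 0 fell, while 2 rose and 2 fell with FXRα3 and 3 rose and 2 fell with FXRα4.

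Among 12 genes of the canalicular scaffold and its trafficking, 4 rose and 1 fell with FXRα1, 5 rose and 3 fell with FXRα2, 2 rose and 1 fell with FXRα3, and 4 rose and 3 fell with FXRα4. Rdx, the gene of radixin that holds MRP2 in the canalicular membrane, fell by 0.18 ± 0.05 with FXRα2 (limma adjusted p = 0.00695) and 0.34 ± 0.05 with FXRα4 (limma adjusted p = 9.73e-06). It did not pass with FXRα1 (0.031) or FXRα3 (−0.075). The related Msn fell with all 4 isoforms (by 0.53, 0.85, 0.28 and 0.42). Slc9a3r1, a scaffold protein that binds radixin and MRP2, rose with all 4 (0.29, 0.72, 0.20 and 0.50), and Pdzk1 passed with none.

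The genes whose 5 group means lay nearest to those of a member were found by the root mean square difference between group means, each gene centred on its own average, over 15 arrays. For Abcc6 they were Gask1a (0.072), the oxytocin receptor gene Oxtr (0.084), Sorbs3 (0.096), Dmrta1 (0.116) and Parvb (0.122), whose log2 differences from GFP with FXRα2 were 1.08, 1.21, 1.30, 1.43 and 1.47. For Abcc1 they were the replication origin gene Orc1 (0.038), Zfp185 (0.065), Tceal9 (0.074), the growth factor gene Tgfb2 (0.086) and the pseudogene Olfr1372-ps1 (0.091). Abcc2 was added after its values were seen, although its group means spanned 0.91, short of the 1 log2 unit required. Abcc4, which spanned 0.99, was also short of it and was not added. For Abcc2 the nearest genes were Dcdc2a (0.072), Klhl21 (0.084), the cytochrome gene Cyp2u1 (0.087), Sclt1 (0.092) and Dus4l (0.093). They were found on the same values for which Abcc2 was chosen.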

How the data were processed

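Total RNA of 15 samples was measured on Affymetrix mouse arrays. The authors deposited 1 value per probe set and array, read here as log2 from the range of 1.93 to 13.8, since no source names the base. The submitters' processing notes name Affymetrix Expression Console 1.1 and PLIER without saying what each did. Background correction and normalization: not given in the sources used here.

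Of 35556 probe sets, 21218 had 1 gene symbol, and the brightest per gene was kept, leaving 18820 genes with no filter. All 15 arrays entered 1 linear model of 5 group means in limma 3.58.1 under R 4.3.3 (moderated variances with a mean-variance trend, two-sided, checked on simulated data), for 9 comparisons. Gene names come from the platform annotation. Alternatives were 10 other settings and leaving out each of the 15 arrays.

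Members and gene lists were chosen with earlier results of these data known. The text names the members, up to 4 genes per list with the smallest adjusted p against GFP, a few genes fixed by name, and the 5 genes nearest to a member whose group means span at least 1 log2 unit. The genes nearest to Abcc2 were added later. Python 3.11.15, pandas 2.3.3 and matplotlib 3.10.9 were used for tables and figures.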

Additional observations from a re-analysis of the deposited data

Results flagged for a closer look

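For Abcc6 the effect of losing the insert differed between the N-termini by a test of the difference itself: the interaction was −1.37, with a difference of 1.34 at the shorter N-terminus and −0.03 at the longer one. For Abcc2 the same quantity was 0.22, from differences of −0.91 and −0.69, both downwards. It is given as a value only, because the gene was chosen on those differences.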

How the results depend on the processing

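Precision is limited by 3 arrays per group. Median centring moved the median difference of all genes by −0.105 for FXRα1, −0.221 for FXRα2 and −0.212 for FXRα4 against GFP, and by −0.117 and −0.173 for the insert at the shorter and longer N-terminus. As deposited these medians were 0.0035, −0.0477 and −0.0267 against GFP, and −0.0405 and −0.0167 for the insert. Median centring raised the genes called with FXRα2 from 6448 to 13162, with FXRα4 from 6352 to 11787 and for FXRα4 against FXRα3 from 5561 to 9200. The share of calls that were higher was 67.8%, 51.1%, 53.0% and 53.4% for FXRα1 to FXRα4 as deposited and 32.7%, 14.4%, 39.9% and 16.3% with median centring; for FXRα1 it was 51.5% with 75th percentile centring and 53.8% with quantile normalization. Median centring also moved it from 45.2% to 22.8% for FXRα2 against FXRα1, from 53.5% to 18.4% for FXRα4 against FXRα3 and from 56.3% to 44.3% for the interaction. For FXRα3 against FXRα1 it was 32.2% as deposited and 58.6%, 57.2% and 48.9% with median, 75th percentile and quantile scaling.

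The number of pumps called with FXRα1 was 1 as reported, 0 without the mean-variance trend, and 2 with robust variances, without the dimmest 25% of genes, with quantile normalization, with 16 added to linear values and with the replicate number as a block. With FXRα3 it was 1 without the trend. Abcc2, which the text gives with no test, is left out of these counts. For FXRα3 against FXRα1 no other member was called as reported. Abcc1 passed there with quantile normalization and with the replicate block. With 75th percentile centring Abcc1 and Abcc3 passed, and with median centring Abcc1, Abcc3 and Abcc4. Without FXRα1 replicate 1, Abcc3 passed. For the interaction Abcc6 alone was called, in all 22 alternatives too. Leaving out 1 array gave 0 to 1 called with FXRα1, 1 to 2 with FXRα3, 1 to 2 with FXRα4 (3 with all arrays) and 2 to 4 for FXRα4 against FXRα2. The replicate block changed no other count of pumps called, and it raised the genes called for FXRα3 against FXRα1 from 1291 to 2117; without FXRα3 replicate 1 or 2 they were 831 and 780. The replicate numbers were not taken as pairs in the main fit. Over 30 same-numbered pairs of arrays, the deviations from the group means correlated at −0.211 to 0.425. They correlated above 0.1 in 18, among them all 9 between FXRα2, FXRα3 and FXRα4. In most pairs, though not in all, an array correlated best with its own number in the other group. Whether arrays of one number shared a batch was not tested.

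Some signs turned. With median centring these were those of Abcc3 with FXRα2 (−0.148, adjusted p = 0.0188 by limma) and FXRα4 (−0.092), Abcc1 (−0.0027) and Abcc5 (−0.027) with FXRα1, and Abcc6 for FXRα3 against FXRα1 (0.057). Quantile normalization turned Abcc5 with FXRα1 (−0.012) and Abcc6 for FXRα3 against FXRα1 (0.016; 0.050 with 75th percentile centring). Leaving out 1 array turned 5 differences, whose ranges were −0.015 to 0.217 for Abcc1 and −0.015 to 0.169 for Abcc5 with FXRα1, −0.147 to 0.031 for Abcc1 with FXRα4 (0.023 without FXRα4 replicate 1), −0.069 to 0.023 for Abcc6 in FXRα4 against FXRα3, and −0.097 to 0.102 for Abcc6 in FXRα3 against FXRα1 (0.0078 without FXRα3 replicate 2). The cause of these changes was not tested.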
